A study of Mus musculus with 11 samples.

Results

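A set of 7 lysosomal genes was followed across the series: Ctsb, Ctsh, Gusb, Naglu, Gaa, Lamp2 and Cd63. They were chosen by symbol, as the 11 probes that the platform's annotation gives to these 7 names alone, out of 9600 probes with 1 gene symbol and 7114 named genes. The study profiled 11 mouse RNA samples on 2-colour cDNA arrays, 1 array per sample, and its title asks how RAS isoforms act in melanocytes. NRAS_MEL and HRAS_MEL are named for RAS isoforms, D6_MEL and Melan A are melanocyte labels without one, 3T3 and VA_MEF were read as fibroblast lines, VA_475 has no cell type in its labels, and Heart, Kidney, Liver and Lung name organs. NRAS_MEL and D6_MEL share a code in their descriptions, with Nras added for the first. The labels used here give no strain, age, sex, transgene promoter or clone for any sample. All groups share the same design: own RNA, extracted with Trizol and labelled with Cy3, was hybridised against 1 mouse embryo reference labelled with Cy5.

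Lysosomes are acidic organelles in which hydrolases break down proteins, glycans, glycogen and lipids delivered by endocytosis and autophagy. Soluble hydrolases are carried there mainly by mannose 6-phosphate receptors, while heavily glycosylated membrane proteins line the organelle. Pigment cells use the same machinery to build melanosomes, which are lysosome-related organelles. Transcription factors of the MiT/TFE family, among them Mitf of melanocytes and Tfeb, bind short sites with the core CACGTG near many lysosomal genes.

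Such a core lay in the promoter windows of Naglu and Gaa. Windows in the RefSeq table (build GRCm38.p6, from 250 bases before to 50 after a gene's start) were found for 5 of the 7 genes, all except Ctsb and Ctsh. The motif CACGTG, which reads the same on both strands, was in 2 of these 5 windows, against 7.15% of all 32851 windows. Its extension TCACGTG, searched on both strands and always overlapping the core, was in the same 2 windows and in 3.77% of all. Of the 45 windows found for 38 other measured genes of lysosomal enzymes and membrane proteins, 12 held CACGTG, or 26.7%. The stretches are shown because they carry this match; they lie on the plus strand at chr11:101069991-101070056 for Naglu and chr11:119267793-119267858 for Gaa, with TCACGTG in capitals, with the core at -73 and -140 from the start.
Naglu: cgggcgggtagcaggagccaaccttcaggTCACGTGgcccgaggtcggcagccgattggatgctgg
Gaa: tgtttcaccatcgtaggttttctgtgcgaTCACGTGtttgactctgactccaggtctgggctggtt

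Values are ratios of own RNA over the embryo reference, taken as log2, so 1 stands for 2-fold and genes are compared with themselves across arrays, not with each other. The direction is likely rather than stated, and every sign below would turn if the table ran as the titles put it, sample before reference. With the sign turned, the liver list (Alb, Ttr, Apoa1 and Apob) had a median of 2.21 in 1 array and of -6.16 to -3.77 in the other 10, which is the basis for that direction. Markers went against several labels. That liver median of 2.21 was in the array labelled Lung, the lung list was highest in the array labelled Liver at 5.75, and the heart list in the array labelled Melan A at 3.77, over 4, 3 and 2 measured genes. The kidney list was highest under its own label, at 5.60 over 3 genes. The array labelled Heart correlated with D6_MEL at 0.917 across genes and had a heart list median of -0.96. Of the 18 melanocyte markers only 5 were measured, without Tyr, Dct, Pmel, Mitf or Sox10; their median was 0.71 in VA_MEF and -0.99 to -0.50 in the 3 MEL-labelled arrays. Among these 5, Mlph, a melanosome transport gene, stood at 2.36 to 3.18 in the 3 MEL-labelled arrays. It was 3.06 in VA_MEF and 2.94 in the array labelled Heart, against -0.71 to 0.57 in the other 6. Rab38 was highest in VA_MEF at 3.40. Kit and Ednrb did not share this, at -1.63 and -3.48 in VA_MEF and -1.77 and -3.41 in the array labelled Heart. Both were highest in the array labelled Liver, at 0.41 and 0.36. So was Rab27a at 1.16, against 0.71 in VA_MEF. The fibroblast list was highest in 3T3 at -0.46. It stood at -1.90 in VA_MEF, and lower still in HRAS_MEL at -1.93 and Kidney at -2.47. The collagen gene Col1a2 was at -6.72 in VA_MEF, against -0.36 in 3T3. Pdgfra went the other way, at 0.16 against -0.79, and Lum was alike, at -2.49 against -2.54. The other measured genes of the list were lower in VA_MEF than in 3T3. By Mlph, Rab38 and most of the fibroblast list VA_MEF therefore also went against its label. Kit and Ednrb were low there, and Pdgfra was higher than in 3T3. Arrays keep their labels below, no array was moved to another group, and each class comparison is given with and without arrays whose markers went against their class.

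No label had a second array, so no replicate error exists for a single array. The only spread within an array was that between probes of a gene: in the difference of 2 arrays its median SD was 0.313 over the 55 pairs of arrays, and neighbours in an order of arrays that lay closer than this were taken as not separated. The pairs' own values ran from 0.168 to 0.459. Ctsb, Ctsh, Naglu and Gaa had 1 probe each, Gusb and Lamp2 had 2 and Cd63 had 3.

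**Figure D1:**
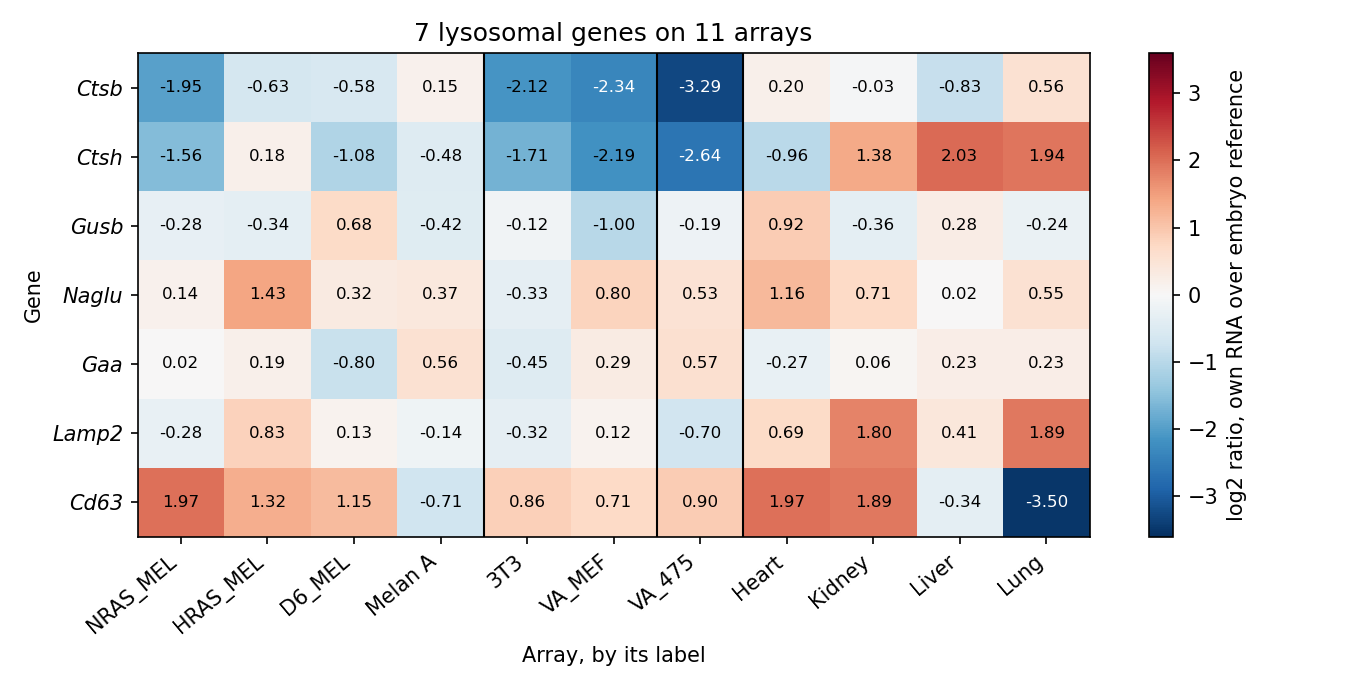
Log2 ratio of own RNA over the embryo reference (colour and printed number) for 7 lysosomal genes (rows) on 11 arrays (columns, by label; lines divide melanocyte-labelled, fibroblast-labelled, VA_475 and organ-labelled arrays). Ctsb and Ctsh are lowest in 3T3, VA_MEF and VA_475, and Cd63 stands at -3.50 in the array labelled Lung.

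Cathepsin B (Ctsb), a cysteine protease of broad specificity, varied more across the arrays than 92.2% of genes, with a range of 3.85 against a median range of 1.55. It stood at -1.95 in NRAS_MEL, -0.63 in HRAS_MEL, -0.58 in D6_MEL and 0.15 in Melan A. It was lowest in VA_475 at -3.29, followed by -2.34 in VA_MEF and -2.12 in 3T3. In the organ-labelled arrays it stood at 0.19 for Heart, -0.03 for Kidney, -0.83 for Liver and 0.56 for Lung. NRAS_MEL therefore lay with the fibroblast-labelled arrays, 0.17 from 3T3, and below the next array by 1.13, while D6_MEL and HRAS_MEL were not separated. Cathepsin H (Ctsh), an aminopeptidase that also matures surfactant proteins in lung epithelium, had a range of 4.67, wider than that of 95.9% of genes. It stood at -1.56 in NRAS_MEL, 0.18 in HRAS_MEL, -1.08 in D6_MEL and -0.48 in the array labelled Melan A. It was -1.71 in 3T3, -2.19 in VA_MEF and -2.64 in VA_475. It reached 2.03 in the array labelled Liver, which carries lung markers, 1.94 in that labelled Lung, 1.38 in Kidney and -0.96 in that labelled Heart. The largest step in this order, 1.19, separated these 3 high arrays from HRAS_MEL, and Liver and Lung were not separated.

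The 3 glycan-degrading enzymes varied less. Beta-glucuronidase (Gusb), which trims glucuronic acid from glycosaminoglycans, stood at -0.28 in NRAS_MEL, -0.34 in HRAS_MEL, 0.68 in D6_MEL and -0.42 in the array labelled Melan A. It was highest in the array labelled Heart at 0.92 and lowest in VA_MEF at -1.0, and the other 5 arrays lay between -0.36 and 0.28. D6_MEL and the array labelled Heart were not separated from each other at the median spread of 0.313 and stood above the rest. Their gap of 0.23 did exceed the spread of that pair alone, 0.168. Naglu, the alpha-N-acetylglucosaminidase of heparan sulfate breakdown, was highest in HRAS_MEL at 1.43, against 0.14 in NRAS_MEL, 0.32 in D6_MEL and 0.37 in the array labelled Melan A. It stood at 1.16 in the array labelled Heart, at -0.33 in 3T3, and at 0.02 to 0.80 in the other 5. The array labelled Heart was not separated from HRAS_MEL at the median spread. Their gap of 0.267 was just above the spread of that pair alone, 0.258. Acid alpha-glucosidase (Gaa), which releases glucose from glycogen, had the smallest range of the 7 at 1.37. It was lowest in D6_MEL at -0.80, against 0.02 in NRAS_MEL, 0.19 in HRAS_MEL and 0.56 in Melan A. In the other 7 arrays it lay between -0.45 in 3T3 and 0.57 in VA_475. D6_MEL was the only array set apart from its neighbour by more than the probe spread.

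Lamp2, a glycoprotein of the lysosomal membrane needed for fusion with autophagosomes, was highest in the arrays labelled Lung at 1.89 and Kidney at 1.80. It stood at -0.28 in NRAS_MEL, 0.83 in HRAS_MEL, 0.13 in D6_MEL and -0.14 in the array labelled Melan A. It was -0.70 in VA_475, and between -0.32 and 0.69 in 3T3, VA_MEF and the arrays labelled Heart and Liver. Its 2 probes differed in size: they read 1.34 and 2.26 in Kidney, and 0.43 and 1.23 in HRAS_MEL. Cd63, a tetraspanin of late endosomes, exosomes and early melanosomes, had the widest range of the 7, at 5.48. It stood at 1.97 in NRAS_MEL, 1.32 in HRAS_MEL, 1.15 in D6_MEL and -0.71 in the array labelled Melan A. It was 0.71 to 0.90 in 3T3, VA_MEF and VA_475, 1.97 in the array labelled Heart and 1.89 in Kidney. It was -0.34 in the array labelled Liver and -3.50 in that labelled Lung, where its 3 probes read -3.82 to -3.23. The step below Melan A, 2.79, was the largest between any neighbours for these genes.

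The 7 genes did not share 1 pattern. Over the 11 arrays, which share the reference RNA, Pearson correlations described Ctsb, Ctsh and Lamp2 as alike, at 0.735 for Ctsb with Ctsh, 0.740 for Ctsb with Lamp2 and 0.798 for Ctsh with Lamp2. Gusb and Gaa ran opposite ways, at -0.621. Cd63 stood at -0.495 with Ctsh and -0.335 with Lamp2, but at -0.184 and 0.356 without the array labelled Lung, so those values rest on that array. Naglu and Gaa, which share the TCACGTG match, correlated at 0.211. Of the MiT/TFE genes, Tfeb and Tfe3 were measured. Tfeb stood at 0.18 in NRAS_MEL, 0.49 in HRAS_MEL, -0.73 in D6_MEL and 1.04 in the array labelled Melan A. Its correlation over the arrays was 0.459 with Gaa and 0.0783 with Naglu. With Ctsh it was 0.609, with Ctsb 0.492, with Lamp2 0.250, with Gusb -0.163 and with Cd63 -0.160. Tfe3 stood at 0.73 in NRAS_MEL, 0.77 in HRAS_MEL, 0.50 in D6_MEL and -0.17 in the array labelled Melan A.

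Among the 7035 genes with a value on every array, those most like each member by Pearson r over the 11 arrays were named. For Ctsb they were Fech at 0.954, Ak3 at 0.924 and Oxr1 at 0.895. For Ctsh they were Raly at 0.942, Dpp4 at 0.931 and Itm2b at 0.926. For Lamp2 they were Traf6 at 0.928, Deptor at 0.923 and Rab8a at 0.923, and for Cd63 they were Jrk at 0.952, Zfp61 at 0.919 and Thap2 at 0.916. For Gusb they were Acsl4 at 0.877, AA792892 at 0.872 and Esyt3 at 0.864. For Naglu they were D6Wsu163e at 0.917, Mt1 at 0.826 and Vps26a at 0.810, and for Gaa they were Rxrb at 0.882, Pam16 at 0.833 and Neat1 at 0.831. No member was among the closest genes of another. With 11 arrays and this many genes searched, values of this size are a description only.

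The RAS-named arrays were then set against D6_MEL and against each other. The 7 names were picked from lists in which these same differences had been seen, so the counts describe the choice and support nothing; the 3 comparisons also share arrays. NRAS_MEL and D6_MEL differed by at least 2-fold in 6.79% of 7053 genes (2.41% higher in NRAS_MEL, 4.38% lower), and in 1 of the 7. Ctsb was lower in NRAS_MEL, with a difference of -1.38 that exceeded that of 97.3% of genes. Gusb stood just inside the 2-fold mark at -0.97, with its 2 probes at -1.45 and -0.49. Ctsh, Lamp2 and Naglu lay at -0.48, -0.41 and -0.17, and Cd63 and Gaa were higher in NRAS_MEL, both by 0.82. For Cd63 the 3 probes read 0.75 to 0.88. With the array labelled Heart, the closest one to D6_MEL, in its place, 3 of the 7 were at least 2-fold lower in NRAS_MEL: Ctsb at -2.15, Gusb at -1.20 and Naglu at -1.02. Among all genes 642 were at least 2-fold apart in that comparison, against 479 with D6_MEL. Cd63 then differed by 0.0036. With the array labelled Melan A in its place, Gaa at -0.54 and Gusb at 0.14 turned direction, Cd63 stood at 2.69, Ctsb at -2.10 and Ctsh at -1.09.

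HRAS_MEL and D6_MEL differed by at least 2-fold in 11% of genes (5.18% higher in HRAS_MEL, 5.86% lower), 778 in number, and in 3 of the 7. Ctsh was higher in HRAS_MEL by 1.27 and Naglu by 1.12, and Gusb was lower by -1.02, its 2 probes at -1.21 and -0.85. Gaa at 0.99 lay just inside the mark. Lamp2 differed by 0.70, but its probes read 0.21 and 1.18, and Cd63 and Ctsb differed by 0.17 and -0.05, within the probe spread. When D6_MEL was replaced by the array labelled Heart, Gusb lay at -1.26, Naglu at 0.27 and Cd63 at -0.65, the last turning direction. Ctsb then moved to -0.82, Lamp2 to 0.14 and Gaa to 0.47, while Ctsh lay at 1.15. With the array labelled Melan A in place of D6_MEL, Gusb at 0.0838 and Gaa at -0.37 turned direction. Cd63 stood at 2.03 and Ctsb at -0.78 in that comparison.

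NRAS_MEL and HRAS_MEL differed by at least 2-fold in 9.26% of genes (4.23% higher in NRAS_MEL, 5.03% lower), and in 4 of the 7, all lower in NRAS_MEL. Ctsh was 3.36-fold lower, at -1.75, Ctsb stood at -1.32, Naglu at -1.29 and Lamp2 at -1.11, its 2 probes at -1.57 and -0.65. Cd63 was higher in NRAS_MEL by 0.66, and Gusb and Gaa differed by 0.06 and -0.17. The plot of differences shows that the proteases, Naglu and Lamp2 lay on 1 side here and Cd63 on the other.

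**Figure D2:**
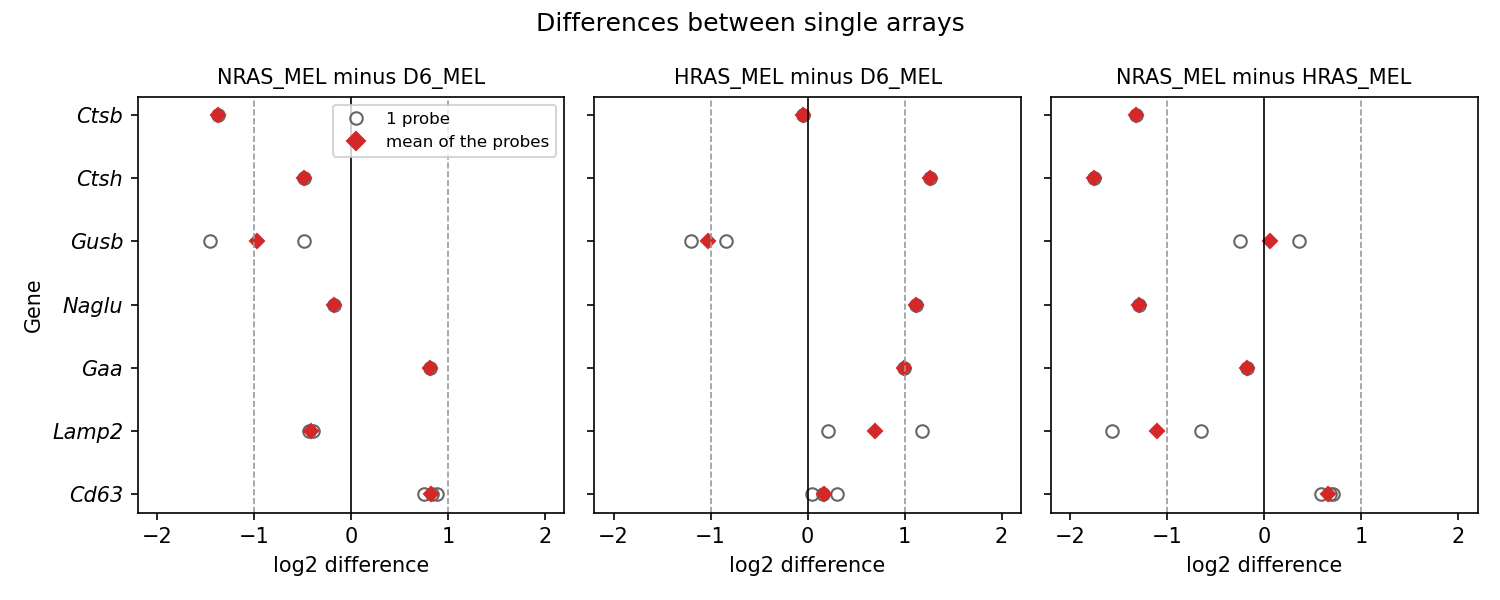
Log2 difference between 2 arrays (x axis) for each of the 7 genes (y axis) in 3 comparisons; open circles are single probes, diamonds the mean of a gene's probes, and dashed lines mark 2-fold. In HRAS_MEL minus D6_MEL the 2 probes of Lamp2, at 0.21 and 1.18, lie on both sides of the 2-fold line.

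Wider lists of lysosomal genes put these members in context. Without the 7, 45 genes of lysosomal enzymes and membrane proteins were measured. In NRAS_MEL minus D6_MEL, 1 of them was at least 2-fold higher and 2 were lower, with a median of -0.13 against 0.02 over all genes. In HRAS_MEL minus D6_MEL, 1 was higher and 1 lower, with a median of 0.10 against -0.01. In NRAS_MEL minus HRAS_MEL, 1 was higher and 2 lower, with a median of -0.15 against 0.02. These shares are near or below those of all genes.

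Taken list by list, the members are included again. Ctsb and Ctsh are among the proteases, Gusb, Naglu and Gaa among the glycosidases, and Lamp2 and Cd63 among the membrane proteins. The list medians are therefore not independent of the choice of members. Proteases showed the lowest median, -0.54 over 10 genes in NRAS_MEL minus HRAS_MEL, where Tpp1 at -0.89 and Ctsa at -0.66 followed the members Ctsh and Ctsb. In NRAS_MEL minus D6_MEL that median was -0.42, with Tpp1 at -0.70 and Ctsl at -0.67 but Ctsc at 0.50, and in HRAS_MEL minus D6_MEL it was 0.16, with Ctsc at 0.91 and Ppt1 at -0.70. The 15 glycosidases and sulfatases had medians of -0.01 in NRAS_MEL minus D6_MEL, 0.09 in HRAS_MEL minus D6_MEL and -0.02 in NRAS_MEL minus HRAS_MEL. The arylsulfatase Arsb at -1.43 in NRAS_MEL minus D6_MEL, the alpha-galactosidase Gla at -1.33 in HRAS_MEL minus D6_MEL and the beta-mannosidase Manba at -1.46 in NRAS_MEL minus HRAS_MEL were furthest apart. None of the 11 other enzymes and activators was 2-fold apart in these comparisons, and the largest difference was Acp5, the tartrate-resistant acid phosphatase, at 0.93 in NRAS_MEL minus HRAS_MEL.

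Among the 16 membrane proteins the largest differences were Laptm5, a lysosomal protein of blood cells, and Clcn7, the chloride and proton exchanger. Laptm5 stood at -0.95 in NRAS_MEL, -2.52 in HRAS_MEL and -3.71 in D6_MEL. Clcn7 stood at -1.23 in NRAS_MEL, 0.84 in HRAS_MEL and 0.73 in D6_MEL. Of the 13 subunits of the vacuolar ATPase, the proton pump that acidifies the lysosome, 0 were 2-fold apart in NRAS_MEL minus D6_MEL, Atp6v1g1 lay at -1.43 in HRAS_MEL minus D6_MEL, and Atp6v0b at 1.23 and Atp6v1g1 at 1.04 were higher in NRAS_MEL than in HRAS_MEL. Of 22 sorting genes, 3 were at least 2-fold lower in NRAS_MEL than in D6_MEL, against 4.38% of all genes: the late endosomal GTPase Rab7 at -1.73, the retromer subunit Vps35 at -1.42 and the adaptor subunit Ap3s2 at -1.28. In HRAS_MEL minus D6_MEL the adaptor subunit Ap3s1 was the 1 such gene, at 1.44, and in NRAS_MEL minus HRAS_MEL they were Ap1s1 at 1.23, Ap3s1 at -1.33 and Vps35 at -1.06. Tfeb was higher than in D6_MEL by 0.91 in NRAS_MEL and 1.22 in HRAS_MEL, while Tfe3 differed by 0.23 and 0.27. Among 13 tetraspanins, the family of Cd63, Tspan9 was higher than in D6_MEL by 1.95 in NRAS_MEL and 2.62 in HRAS_MEL. Tspan15 was lower in HRAS_MEL than in D6_MEL, at -1.25, with a median of -0.40 over the 13, and Tspan8 at 1.17 and Tspan32 at 1.12 were higher in NRAS_MEL than in HRAS_MEL. None of 3 cysteine protease inhibitors (Cst3, Cstb and Stfa1) was 2-fold apart in these comparisons.

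**Figure D3:**
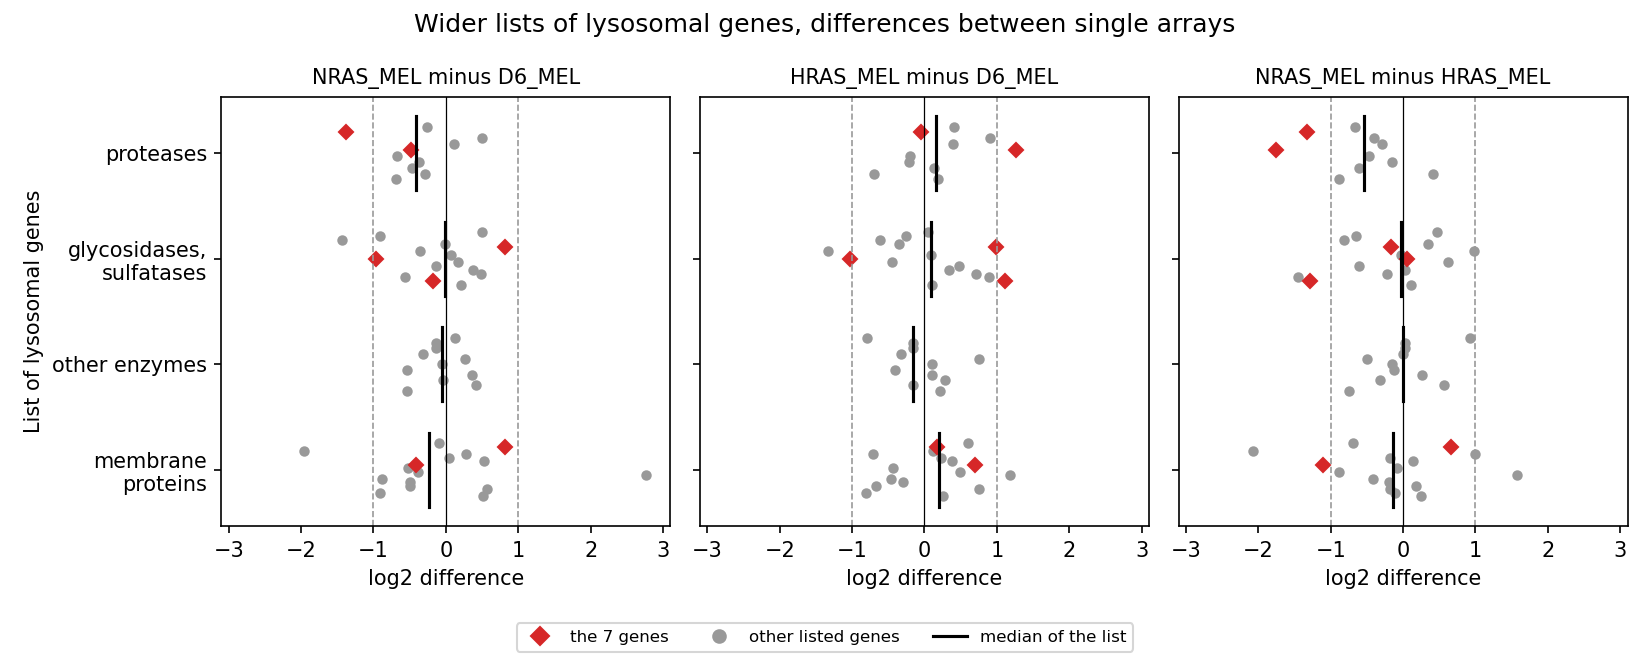
Log2 difference between 2 arrays (x axis) for the genes of 4 lists of lysosomal genes (y axis); diamonds are the 7 genes, grey points the other listed genes, black bars the list medians and dashed lines 2-fold. Most grey points lie inside the 2-fold lines, and the protease median in NRAS_MEL minus HRAS_MEL, with Ctsb and Ctsh included, is -0.54.

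For a test across arrays, the labels' classes were compared with limma, with lines or organs standing in for replicates, so that an adjusted p rests on how much lines or organs differ within their class. Melanocyte-labelled arrays averaged -0.73 ± 0.76 for Ctsh (SD, n = 4), against 1.10 ± 1.40 in organ-labelled arrays (SD, n = 4). The difference of -1.83 ± 0.65 (SE) did not pass, with an adjusted p of 0.930 in limma. Lamp2 averaged 0.13 ± 0.49 in melanocyte-labelled arrays and 1.20 ± 0.76 in organ-labelled arrays (SD, n = 4 each), and Ctsb -0.75 ± 0.88 and -0.03 ± 0.59. Cd63 averaged 0.93 ± 1.15 in melanocyte-labelled arrays and 0.0036 ± 2.57 in organ-labelled arrays, and its difference of 0.93 turned to -0.24 without the array labelled Lung. None of the 7 passed, with adjusted p of 0.930 to 0.995 in limma, in a comparison that called 0 of 7064 genes (0.0%) and had 291 at an unadjusted p under 0.05.

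Without the arrays labelled Heart and Melan A, whose markers went against their labels, Ctsh passed the threshold. Ctsh averaged -0.82 ± 0.90 in the 3 MEL-labelled arrays and 1.78 ± 0.35 in Kidney, Liver and Lung (SD, n = 3 each), lower by -2.60 ± 0.45 (SE) with an adjusted p of 0.0330 in limma. The members were chosen with earlier results of these data known, and the arrays left out by markers in the same data. The one labelled Heart held the lowest Ctsh value of the organ-labelled arrays, -0.96. This adjusted p is therefore no independent test. That setting called 152 genes (2.16%), 79 of them lower (1.12%), and Ctsh was the 1 member among them. Over the fits of melanocyte-labelled against organ-labelled arrays the adjusted p of Ctsh in limma ran between 0.0330 and 0.9995. Lamp2 at -1.14 ± 0.46, Ctsb at -0.95 ± 0.47 and Cd63 at 2.13 ± 1.14 did not pass, with adjusted p of 0.207, 0.283 and 0.317 in limma. With the fibroblast-labelled arrays added to all 4 melanocyte-labelled ones, a choice made after seeing the data, limma called 0 of 7087 genes; 587 had an unadjusted p under 0.05, and the adjusted p of Ctsh was 0.585. With the arrays labelled Heart and Melan A left out of that fit as well, Ctsh lay at -3.05 ± 0.48 with an adjusted p of 0.0111 in limma, among 472 genes called (6.68%), 267 of them lower (3.78%). In that fit 7 of the 52 genes of the lysosomal enzyme and membrane lists were lower in the lines and 0 higher: the dipeptidyl peptidase Ctsc at -2.54, Acp5 at -3.53, Laptm5 at -3.19, the alpha-mannosidase Man2b1 at -1.28, the ribonuclease Rnaset2b at -1.59, the sialomucin Cd164 at -1.41, and Ctsh.

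**Figure D4:**
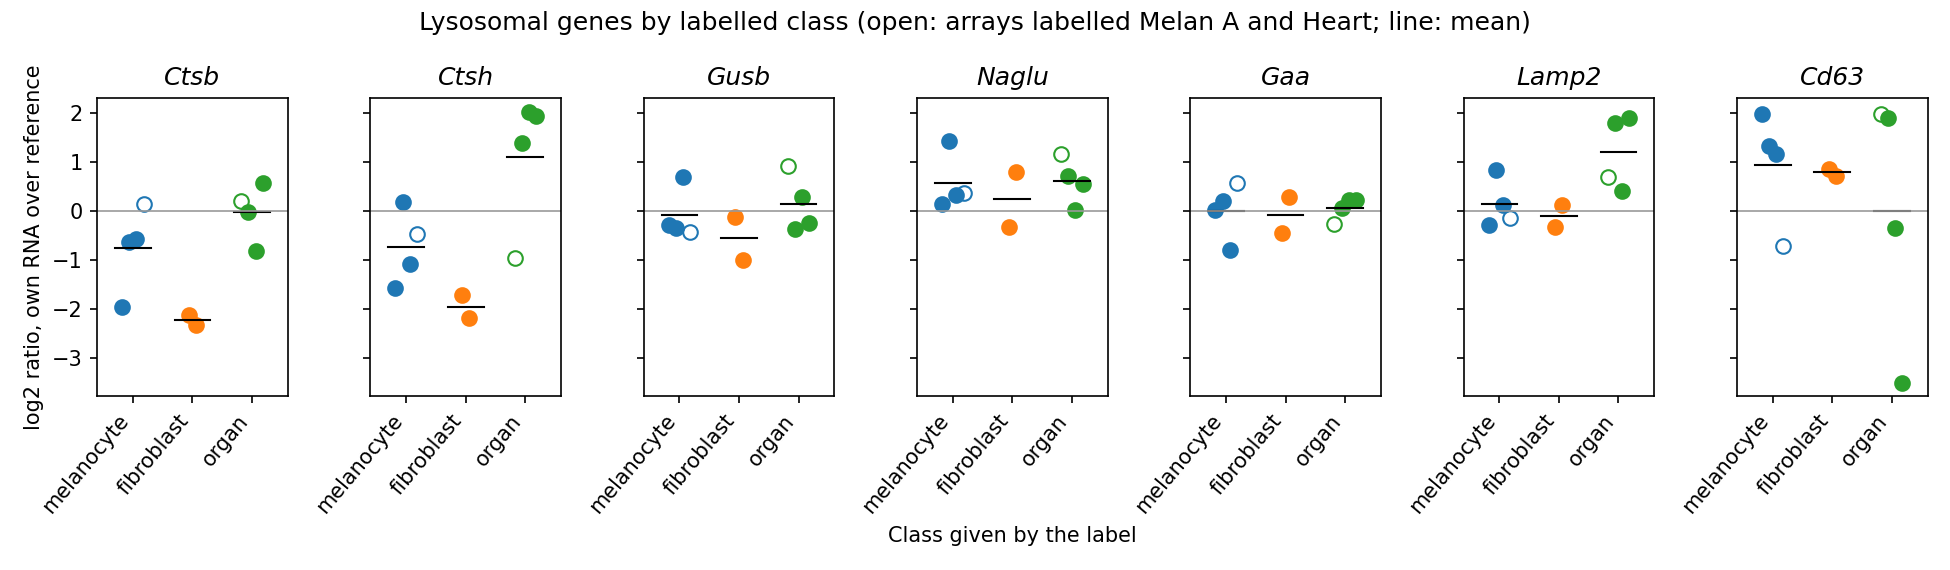
Log2 ratio over the embryo reference (y axis) of each gene in arrays labelled as melanocyte lines, fibroblast lines or organs (x axis); each point is 1 array, lines are class means, and open points are the arrays labelled Melan A and Heart. The filled organ points of Ctsh, at 1.38 to 2.03, lie above every filled melanocyte point.

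Markers of macrophages, which are rich in cathepsins, correlated with Ctsh over the arrays, with exceptions. Of 19 macrophage markers written, 5 were measured (Fcer1g, Lyz2, C1qa, C1qb and C1qc), and Lyz2 is also on the lung list. Their median was 0.75 in the array labelled Lung, 0.67 in that labelled Liver, 0.46 in that labelled Melan A and -0.57 in Kidney, against -1.95 to -1.20 in the other 7. Over the 11 arrays that median correlated at 0.776 with Ctsh, 0.877 with Ctsc, 0.936 with Laptm5, 0.555 with Ctsb and -0.736 with Cd63. With the remaining members it stood at 0.458 for Gaa, 0.43 for Lamp2, -0.073 for Gusb and -0.230 for Naglu. Tfeb, which correlated with Ctsh and Ctsb above, was at 0.681 with the same median. C1qa was lower by -3.50 ± 0.51 (SE) in the 3 MEL-labelled arrays than in the 3 organ arrays, with an adjusted p of 0.0217 in limma, and the other 4 macrophage markers did not pass there. Kidney combined a Ctsh value of 1.38 with a macrophage median below 0. The array labelled Melan A combined its macrophage median of 0.46 with a Ctsh value of -0.48. HRAS_MEL had a higher Ctsh value, 0.18, with a macrophage median of -1.47. The part of such cells in these results was not tested, and in RNA from whole tissue a change in cell number and one in RNA per cell cannot be told apart.

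**Figure D5:**
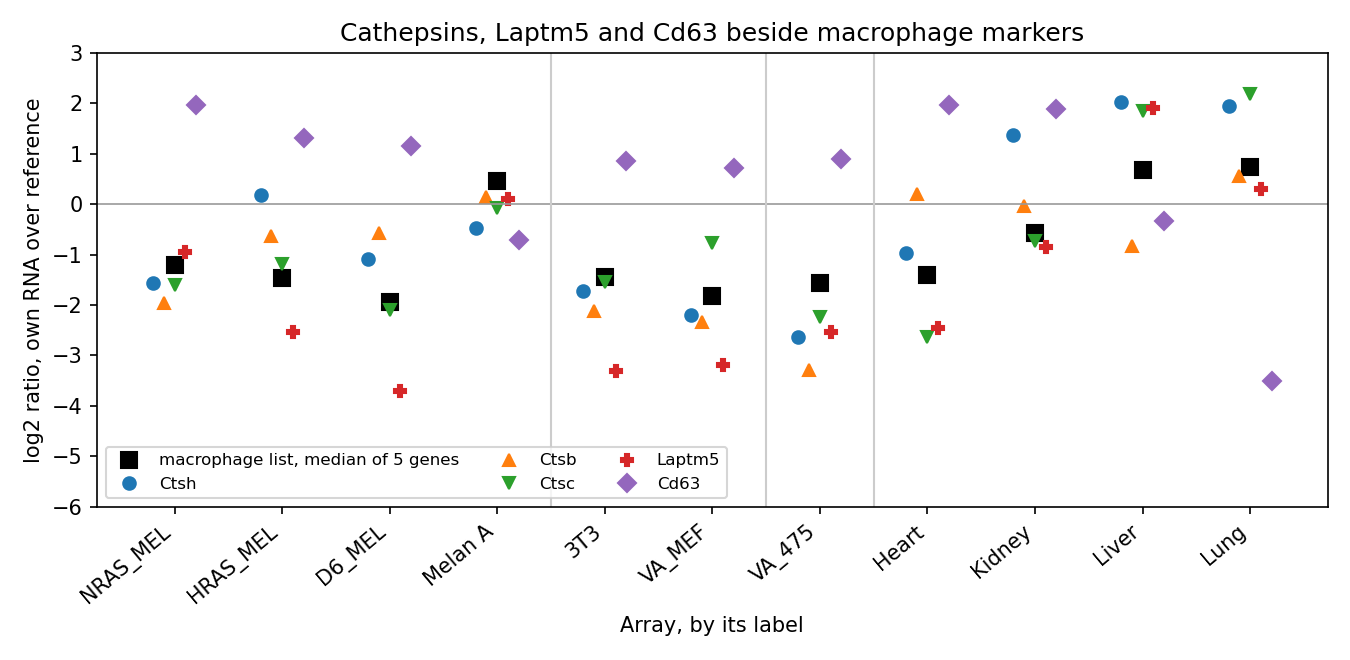
Log2 ratio over the embryo reference (y axis) on each array (x axis, by label) of Ctsh, Ctsb, Ctsc, Laptm5 and Cd63, with the median of 5 macrophage markers as black squares. The squares lie above 0 in the arrays labelled Melan A, Liver and Lung, where Cd63 lies below 0.

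Against fibroblast-labelled arrays, Ctsb averaged -0.75 ± 0.88 in melanocyte-labelled arrays (SD, n = 4) and -2.23 ± 0.15 in 3T3 and VA_MEF (SD, n = 2). The difference of 1.48 ± 0.54 (SE) did not pass, with an adjusted p of 0.961 in limma. Ctsh differed by 1.22 ± 0.80 and the other 5 by 0.08 to 0.47, with Gusb at 0.47, Naglu at 0.33, Cd63 at 0.15 and Gaa at 0.08. Without VA_MEF, Gusb lay at 0.03, Naglu at 0.90, Gaa at 0.45 and Lamp2 at 0.45. Without the array labelled Melan A, Cd63 lay at 0.69 and Gaa turned to -0.11. Without Heart, Melan A and VA_MEF, Ctsb lay at 1.07 ± 0.71 and Ctsh at 0.89 ± 0.66, and none of the 7 passed in any of these fits. With all arrays of the classes kept, limma called 0 of 7064 genes (0.0%) against fibroblast-labelled arrays, and 344 had an unadjusted p under 0.05.

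The RAS-named pair was last compared with D6_MEL and Melan A, 2 arrays against 2. Ctsb was at -1.95 and -0.63 in NRAS_MEL and HRAS_MEL, against -0.58 and 0.15 in D6_MEL and Melan A, a difference of -1.08 ± 0.58 (SE). Cd63 was at 1.97 and 1.32, against 1.15 and -0.71, a difference of 1.43 ± 0.71. The nearest arrays of the pairs, HRAS_MEL and D6_MEL, were not separated for either gene, and none of the 7 passed, with adjusted p of 0.882 to 0.984 in limma, which called 0 of 7053 genes (0.0%); 218 had an unadjusted p under 0.05. Without the array labelled Melan A, which carries heart markers, Cd63 differed by 0.49 ± 0.43 with an adjusted p of 0.948 in limma, and Gusb by -0.997 ± 0.35 with an adjusted p of 0.943 in limma. With D6_MEL set aside instead, Melan A stood alone opposite the RAS-named pair, and Cd63 passed at 2.36 ± 0.43 with an adjusted p of 0.0499 in limma. That fit called 441 of 7062 genes (6.24%), 105 of them higher (1.49%), and over the alternatives the adjusted p of Cd63 ran between 0.0499 and 0.9999.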

How the data were processed

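Own RNA (Cy3) of 11 samples was hybridised with an embryo reference (Cy5) on 2-colour arrays, 1 array each. The deposited table gives 1 log ratio per probe and array, read here as log2, since the sources used here state no log base, background correction or normalization. Its 15247 probes had 15170 to 15210 values per array, with medians of -0.03 to 0.03. Spot intensities were not used here, and precision is limited by how few arrays there are.

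The median of an array was subtracted from its values, and all signs were turned. Probes with 1 symbol in the platform annotation (9600; 214 had several and 5433 none) were averaged per gene, and 9492 matched RefSeq by gene number. Differences of 2 arrays were counted at 2-fold, with no test. Classes were fitted with limma 3.58.1 in R 4.3.3 (lmFit, eBayes), with Benjamini-Hochberg adjustment over all genes and a threshold of 0.05, for genes with at least 3 values per melanocyte or organ class and 2 in fibroblasts. The fits were tested on simulated data. Lines and organs stand in for replicates, and nothing says that the samples came from separate cultures or animals.

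The members and lists were chosen with earlier results of these data known. Named were all 7 members and the 3 genes most correlated with each. The rule also named the 4 genes farthest apart per list and comparison; of these the text gives all that were at least 2-fold apart and only some of the others. Other genes named from the class fits or in the closing section were chosen after their values were seen. Alternatives changed the centring, normalization, probe summary, eBayes setting, gene filter, arrays left out and the array subtracted.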

Additional observations from a re-analysis of the deposited data

Results flagged for a closer look

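Among the 4 melanocyte-labelled arrays, Gusb in D6_MEL stood apart from the others at 0.68, against -0.42 to -0.28 in the other 3. Its gap to the nearest of them was 0.874 of the whole range, above Dixon's 95% critical value for 4 samples. Of 14 groups of values checked, 1 was set apart in this way. Chance sets apart about 1 in 20 when genes are chosen without regard to their values. The members were instead picked from lists in which differences among NRAS_MEL, HRAS_MEL and D6_MEL had been seen. That rate therefore does not apply here, and no conclusion is drawn from the check. The class also holds the array labelled Melan A, which carries heart markers.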

How the results depend on the processing

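Members at least 2-fold apart in NRAS_MEL minus D6_MEL numbered 1 as reported. They numbered 2 with no centring, with quantile normalization and with 1 probe per gene. With the array labelled Melan A in place of D6_MEL they numbered 3, and likewise with that labelled Heart, added after seeing the data. Over all genes the count rose too, from 479 to 512 with no centring and 606 with quantile normalization. It was 597 with 1 probe per gene and 642 with Heart. With Melan A in place of D6_MEL, 2032 genes were 2-fold apart from NRAS_MEL and 1856 from HRAS_MEL, against 479 and 778, and Gusb in HRAS_MEL turned to 0.0838. Genes called by limma between melanocyte-labelled and organ-labelled arrays, 0 as reported, were 152 without the arrays labelled Heart and Melan A, 0 with fibroblast-labelled arrays added to the melanocyte-labelled ones, and 472 with both changes, the last 2 settings being added after seeing the data. Leaving out 1 array at a time gave 0 to 7 calls there (7 without Heart), 0 to 4 against fibroblast-labelled arrays (4 without 3T3, 1 without VA_MEF) and 0 to 441 for the RAS-named pair (441 without D6_MEL). A class left with 1 array was assumed to vary like the others. The cause of these shifts was not tested. The sign of a member's value changed in 7 of 112 recomputed differences of 2 arrays, 5 of them with Melan A or Heart in place of D6_MEL, and in 21 of 322 values of the class fits, none of which had passed as reported. In 3 of the 322 a member passed the threshold, Ctsh under 2 settings and Cd63 under 1. No paired analysis was possible because each label has 1 array, so the groups share only the number 1.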

Other observations

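Other lysosomal genes were high in single arrays, named here after their values were seen. In the array labelled Kidney, the proton pump subunit Atp6v1a stood at 2.59, the sialidase Neu1 at 2.18 and the protease legumain (Lgmn) at 1.99, against at most 0.60, 0.29 and 0.11 in the other 10 arrays. In the array labelled Melan A, the saposin precursor Psap stood at 2.68 and the acid sphingomyelinase Smpd1 at 2.14, with Kidney next at 1.54 and 1.20.

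Cd63 was not the one tetraspanin that was low in the array labelled Lung. Tspan3 stood at -3.48 and Tspan6 at -3.09 there, against -1.42 to 0.70 and -1.84 to -0.73 in the other 10 arrays. The median of the 13 tetraspanins in that array was -0.38.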
